A study of Aspergillus aculeatus with 24 samples.

Results

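The 80 gene IDs described here were constantly lower in HUT2365 than in BCC56535 and BCC199, 3 strains of the filamentous fungus Aspergillus aculeatus. They were chosen by their values. For each of the 8615 IDs, the gap was the lowest log2 value in the 16 libraries of BCC56535 and BCC199 minus the highest in the 8 libraries of HUT2365. An ID had to reach a mean of at least 100 in each of BCC56535 and BCC199. In each of these strains, its mean in wheat bran-soybean also had to lie within 1 log2 unit of its mean in glucose. These limits were met by 4009 IDs, 151 of them had a gap above 0, and the 80 with the widest gaps are the members. Their lower level in HUT2365 is therefore a description, and no test of it is given.

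The 24 libraries came from mycelium of HUT2365, BCC56535 and BCC199 at 30 °C, each in a wheat bran and soybean medium or in glucose, for 144 h (day 6) or 72 h (day 3), with 2 libraries for each of the 12 combinations. No genetic change or added agent is named for any strain. The series describes the strains as differing in their ability to degrade plant biomass and names a control and a cellulase-inducing condition, and glucose was treated as the control. The 2 libraries of a group are labelled as biological replicates, but whether each had its own culture is not stated. The p-values below therefore rest on library-to-library spread, which may be technical.

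A. aculeatus is a black-spored Aspergillus used as a source of cellulases, hemicellulases and pectinases, the secreted enzymes that cut plant cell walls. Aspergilli raise such enzymes on plant material and hold many of them down on glucose through carbon catabolite repression. The members were chosen for a strain difference that is present in both media. The files pair no ID with a gene name, and 0 of the 8615 IDs matched the 11152 genes of the RefSeq table for assembly Aspac1, so members are named by ID, their functions are not known here and no sequence is shown. Reads of an ID that is absent from a strain, that differs there in sequence or that is weakly transcribed cannot be told apart in these counts.

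Libraries held 19248977 to 30003709 reads, recovered from the deposited values, and the lowest was the day 3 replicate B of wheat bran-soybean in HUT2365. The SD of the log2 difference between the 2 libraries of a group, over the 8509 IDs tested, ran from 0.33 to 0.824. It was 0.824 in that group, with BCC56535 (0.803) and BCC199 (0.789) in glucose on day 3 next to it. Over the members, the SD was 0.82 in HUT2365 in wheat bran-soybean on day 3, and 0.189 to 0.577 in the 11 other groups. Values below are normalized reads, with the constant of 1 that the deposited values carry removed, and levels are compared between strains and conditions, never between IDs.

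The gap had a median of 0.74 log2 units, which is a fold of 1.67 between the lowest library of the other strains and the highest of HUT2365, and it ran from 0.34 to 9.16. It exceeded 1 log2 unit for 30 members, 2 for 12, 3 for 8 and 5 for 4. The last member inside the limit, acu07646_1, had 309 to 1225 normalized reads in HUT2365, against 2465 to 6060 in BCC56535 and 1552 to 4003 in BCC199 (gap 0.341). The first ID outside it, acu01162_1, had 305 to 473 in HUT2365, against 596 to 1047 in BCC56535 and 664 to 1624 in BCC199 (gap 0.332). The limit fell between gaps that differed by little.

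**Figure D1:**
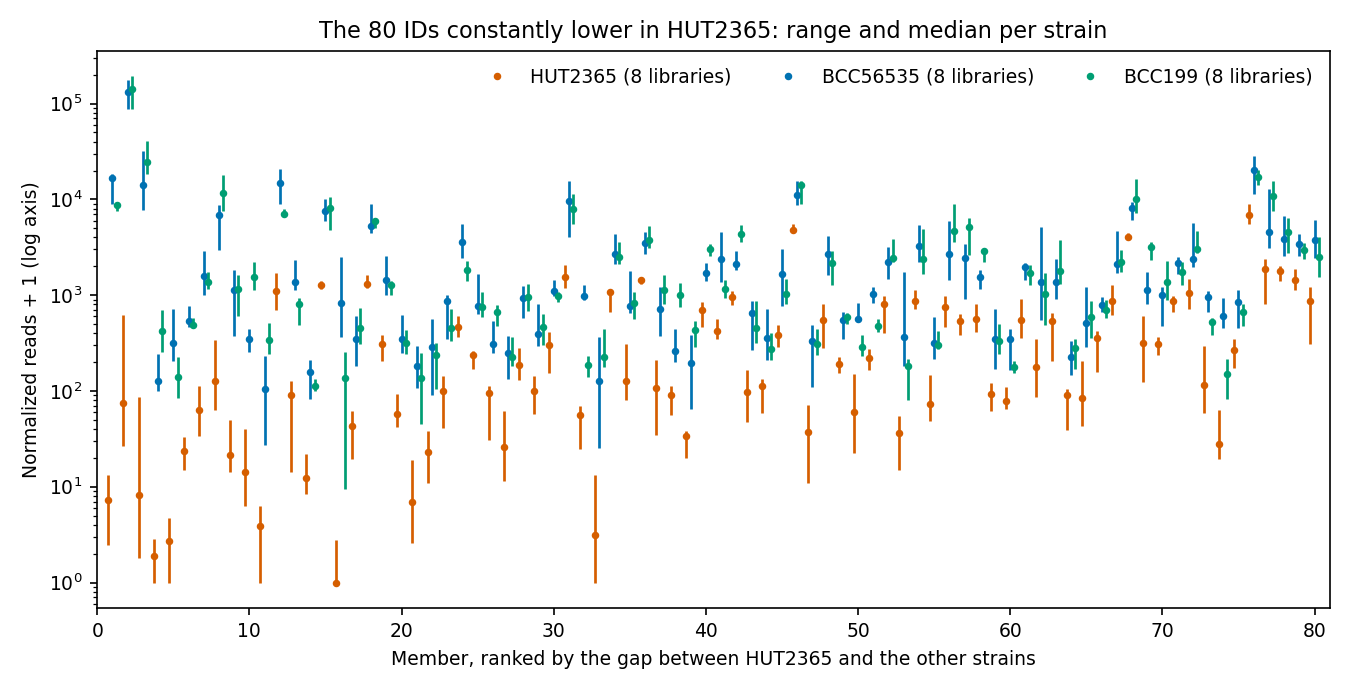
For each of the 80 members, ranked by gap from left (widest) to right, vertical lines span the lowest to highest of 8 libraries per strain and dots mark medians, as normalized reads + 1 on a log axis (HUT2365 orange, BCC56535 blue, BCC199 green). The HUT2365 line lies below both others for every member by construction, and the gap shrinks from 9.16 to 0.34 log2 units along the axis.

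On means, the members were lower in HUT2365 by a median of 4.93-fold against BCC56535 (1.94-fold to 2417-fold) and of 4.8-fold against BCC199 (2-fold to 1484-fold). Over the 4009 IDs that met the limits, the median log2 ratio of HUT2365 to BCC56535 was -0.02 and that to BCC199 was 0.002. Taken against whichever of the other 2 strains was nearer, 5 members were over 100-fold lower, 9 were 10-fold to 100-fold lower, 27 were 4-fold to 10-fold lower, 38 were 2-fold to 4-fold lower and 1 was under 2-fold lower. Both other strains had reads of every member in every library. In HUT2365, 75 members had reads in all 8 libraries, 5 had 0 reads in at least 1 library, and 0 members had 0 reads throughout.

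The widest gap was that of acu00228_1. In HUT2365 its libraries held 2.22 and 6.4 normalized reads for day 6 in wheat bran-soybean and 12.4 and 1.49 for day 3, and 6.31 and 3.16 in glucose on day 6 and 9.19 and 10.2 on day 3. In BCC56535 it ran from 8845 to 18590 (median 16910) and in BCC199 from 7640 to 8928 (median 8634). The level in HUT2365 was thus a few reads in every condition, 2417-fold below the mean of BCC56535 and 1319-fold below that of BCC199.

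Another ID of the same prefix, acu00228_2, showed the opposite order. It had 942 to 2323 normalized reads in the 8 libraries of HUT2365, against 3 reads in all 8 libraries of BCC56535 together and 5 in those of BCC199. The ratio of HUT2365 to BCC56535 was 3477 (95% exact binomial interval 1190 to 16870), and that to BCC199 was 2158 (924 to 6646). The intervals cover counting error only, and acu00228_2 was picked for its opposite order, so they are no test. In HUT2365 the pair summed to 1392 normalized reads on average, against 15510 in BCC56535 and 8465 in BCC199, so the sum was still lower in HUT2365. The sources used here do not say how reads were divided between the IDs of a prefix, and sharing of reads was not tested.

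acu01168_1 had the second widest gap. In HUT2365 it had 99 and 106 normalized reads on day 6 in wheat bran-soybean, 170 and 626 on day 3, 27.1 and 41.9 in glucose on day 6 and 25.9 and 50.1 on day 3. It ran from 87140 to 177500 (median 133200) in BCC56535 and from 87470 to 193800 (median 140600) in BCC199. It made up 0.000116% to 0.00218% of the reads of a HUT2365 library, against 0.367% to 0.629% in BCC56535 and 0.361% to 0.697% in BCC199. All 80 members together made up 0.16% to 0.217% in HUT2365, against 1.19% to 1.54% in BCC56535 and 1.19% to 1.52% in BCC199. Without acu01168_1 these shares were 0.16% to 0.217%, against 0.709% to 0.907% and 0.818% to 0.909%, a lower share in HUT2365 that the choice of members fixes.

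The third, acu04793_1, had 12.2 and 23.8 normalized reads in HUT2365 on day 6 in wheat bran-soybean, 8.82 and 85.1 on day 3, 5.41 and 0.79 in glucose on day 6 and 4.18 and 0.928 on day 3. It ran from 7713 to 32370 (median 13970) in BCC56535 and from 18510 to 40570 (median 24320) in BCC199. For both acu01168_1 and acu04793_1, the highest HUT2365 value was that of replicate B of day 3 in wheat bran-soybean, the library with the fewest reads. Without that library the gap of acu01168_1 was 8.99 log2 units, against 7.12 with it.

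**Figure D2:**
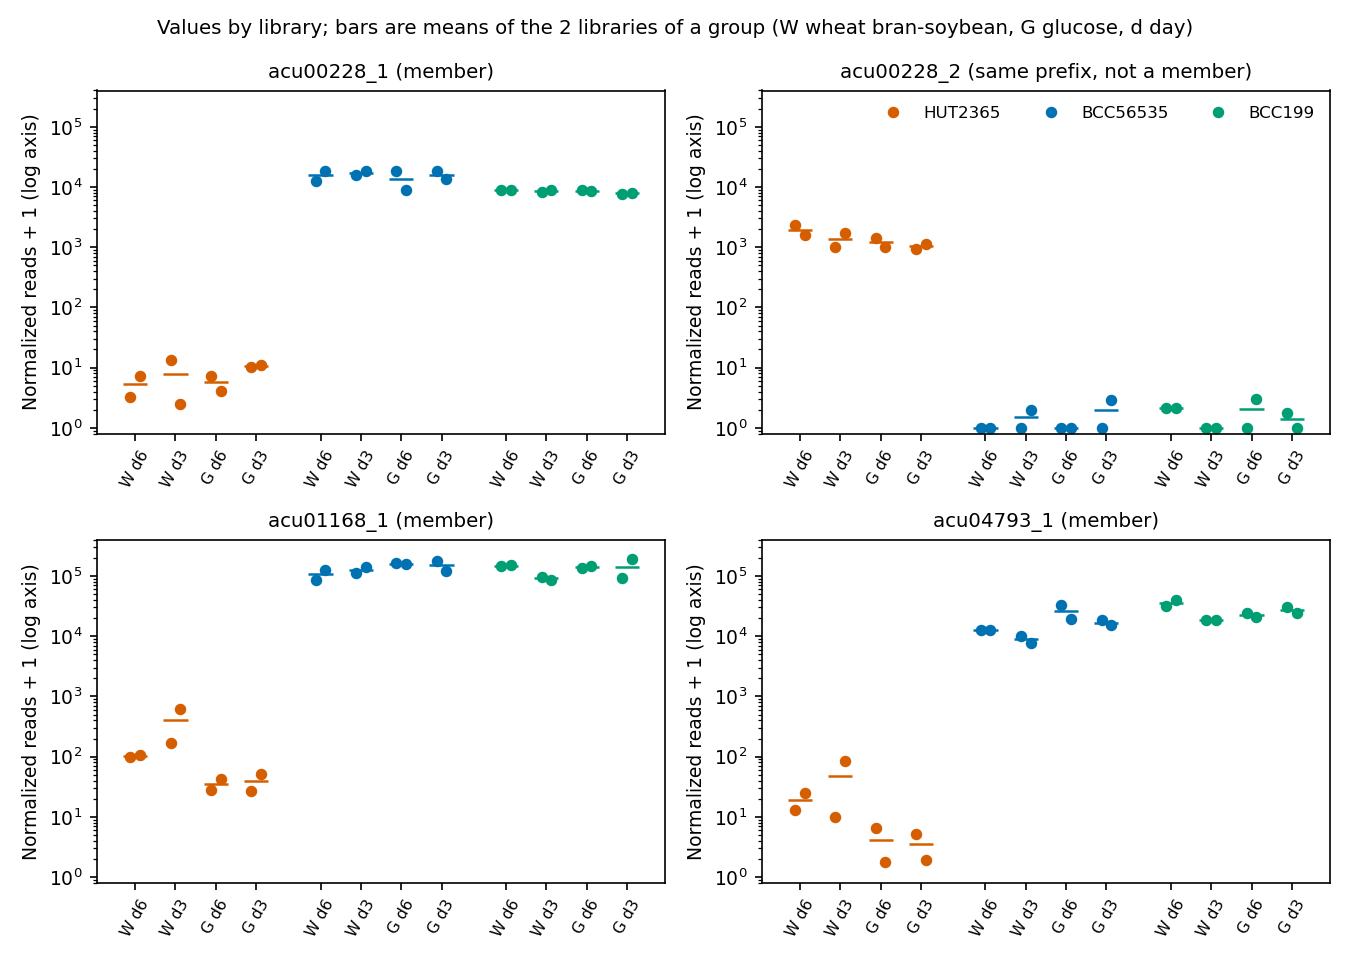
Normalized reads + 1 on a log axis in each library (dots) with the mean of the 2 libraries of a group (bars), for 3 members and for acu00228_2, which shares a prefix with acu00228_1. From left to right stand HUT2365 (orange), BCC56535 (blue) and BCC199 (green), each with wheat bran-soybean (W) and glucose (G) on day 6 (d6) and day 3 (d3). The members lie lower in HUT2365 in every library, and acu00228_2 lies higher there.

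In 4 members, HUT2365 stayed under 10 normalized reads in all 8 libraries. acu04407_1 had 9 reads in the 8 HUT2365 libraries together, a ratio of 135 from BCC56535 to HUT2365 (95% exact binomial interval 70.8 to 296) and of 439 from BCC199 to HUT2365 (231 to 961). acu02244_1 had 4 reads in 8 HUT2365 libraries, with 0 in 5 of them, against 7513 reads in BCC56535 (ratio 2028, interval 792 to 7446) and 1077 in BCC199 (ratio 281, interval 110 to 1034). The others, acu00301_1 and acu00095_1, had 15 and 23 HUT2365 reads, with ratios of 215 (130 to 385) and 44.8 (29.7 to 71) from BCC56535 and of 85.5 (51.6 to 153) and 132 (87.7 to 208) from BCC199. Reads were summed over the 8 libraries of a strain, which differ in medium and day, and intervals cover counting error only. The members were chosen for this difference, so ratios and intervals describe its size and are no test of it. These members were picked for mention after their values were seen.

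At the other end, 69 members had at least 10 normalized reads in each HUT2365 library and 47 averaged at least 100 there. The spread of a member over the 8 conditions and replicates of a strain was alike in HUT2365 and BCC56535: the highest library stood a median of 2.56-fold above the lowest in HUT2365, 2.54-fold in BCC56535 and 1.89-fold in BCC199. The gap within a medium or a day cannot be below that over all libraries, so a gap in each follows from the rule. Within wheat bran-soybean the median gap was 1.13 log2 units and within glucose 1.24. It was wider in wheat bran-soybean for 39 members and in glucose for 41. Within day 6 the median gap was 1.17, against 1.09 within day 3. The lowest of the 16 other libraries belonged to BCC56535 for 48 members and to BCC199 for 32.

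The same rule with another strain as the low one served as a yardstick. With HUT2365, 151 of 4009 IDs that met the limits had a gap above 0 (3.77%), with BCC56535 127 of 3753 (3.38%), and with BCC199 154 of 3899 (3.95%). Gaps above 2 log2 units were held by 12 IDs for HUT2365, 4 for BCC56535 and 5 for BCC199. The widest gap was 9.16 for HUT2365, 11.74 for BCC56535 and 6.48 for BCC199. These counts describe the ranking and were not tested against each other.

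Each ID consists of a number prefix and a member number. Of the 80 members, 12 share their prefix with at least 1 other ID (15%), against 206 of the 4009 IDs that met the limits (5.14%) and 1009 of all 8615 (11.7%). No 2 members share a prefix, and no 2 have neighbouring prefix numbers. The 14 prefix mates did not follow the members as a set, though some were lower in HUT2365. Their median log2 ratio of HUT2365 to the other strains was 0.09, from -2.96 for acu00379_2 to 9.85 for acu00228_2. Of the mates, 1, acu00228_2, had all HUT2365 libraries above all others and 1, acu00029_4, had them all below. Over all IDs, 2.79% lay above and 3.1% below in this sense. acu00125_2 had 29 reads in HUT2365, while its mate acu00125_1 averaged 1860 normalized reads in HUT2365, 1208 in BCC56535 and 2547 in BCC199. Summed over the prefix, acu00125 averaged 1863, 1365 and 2802 in the same order of strains, and acu00515 averaged 1447, 1348 and 1587. These sums were not lowest in HUT2365, while those of the members' other shared prefixes were. The sources used here do not say what a shared prefix stands for. Whether the 12 members share reads with their prefix mates was not tested.

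The medium response of the members inside HUT2365 was not part of the rule. In HUT2365, 37 of the 80 members changed between wheat bran-soybean and glucose over the 2 days (46.2%; limma on log2 values, adjusted p under 0.05), where 59.9% of all 8509 IDs tested and 58.7% of the 4009 that met the limits did. Without the day 3 replicate B of wheat bran-soybean, 31 were called (57.8% of all IDs). Of the 37, 13 rose, against 30.3% of all IDs, and 24 fell, against 29.7%. The median log2 change of the members was -0.16 and that of all IDs 0.004. The rule uses the highest HUT2365 value, so it is not independent of the spread in HUT2365, and nothing is read from the lower share of calls. The cause of that share was not tested. All 80 passed the filter on low values through the strains where they are high, and 75 had at least 10 normalized reads in 2 or more HUT2365 libraries.

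Among the members that met the naming rule, acu01168_1 and acu03108_1 rose most in wheat bran-soybean. acu01168_1 averaged 250 ± 252 normalized reads in wheat bran-soybean and 36.2 ± 11.8 in glucose (SD, n = 4 each; log2 change 2.33, SE 0.33, limma adjusted p = 1.2e-05). The lowest wheat bran-soybean library, at 99, lay above the highest glucose library, at 50.1. The log2 change ran from 1.86 to 2.79 when any 1 of the 8 libraries was left out. The level reached was still far below that of the other strains in the same medium, 87140 or more. acu03108_1 had 139 and 156 normalized reads on day 6 in wheat bran-soybean and 211 and 136 on day 3, against 77.6 and 34 in glucose on day 6 and 61 and 47.3 on day 3 (log2 change 1.55, SE 0.25, adjusted p = 4.5e-05).

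The largest falls were those of acu04895_1 and acu05101_1. acu04895_1 had 13.3 and 21 normalized reads on day 6 in wheat bran-soybean and 46.7 and 64.2 on day 3, against 117 and 126 in glucose on day 6 and 119 and 125 on day 3 (log2 change -1.92, SE 0.15, adjusted p = 1.3e-08). The 4 glucose libraries lay close together and above all 4 wheat bran-soybean libraries. acu05101_1 averaged 153 ± 29.6 in wheat bran-soybean and 521 ± 73.6 in glucose (SD, n = 4 each; log2 change -1.76, SE 0.19, adjusted p = 5e-07). In the other strains the means of these 4 members in the media differed by under 2-fold, as the rule requires.

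Outside the naming rule, and chosen after its values were seen, acu04793_1 also rose, at levels below 100 normalized reads. It averaged 32.5 ± 35.7 in wheat bran-soybean and 2.83 ± 2.33 in glucose (SD, n = 4 each; log2 change 2.46, SE 0.47, adjusted p = 0.00025). acu00125_2 had 3.34 and 7.31 normalized reads on day 6 in wheat bran-soybean and 12.4 and 4.48 on day 3, against 0.902 and 0 in glucose on day 6 and 0 and 0 on day 3. It is counted among the 13 that rose, but it reached 10 normalized reads in only 1 HUT2365 library and passed the filter through the other strains, so no test of it is given. The size of the change of acu04793_1 depends on the pseudocount. Counting all members, 11 had a HUT2365 mean at least 2-fold higher in wheat bran-soybean than in glucose (13.8%), and 6 had one at least 2-fold lower (7.5%). Among the 4009 IDs these shares were 8.68% and 10.2%.

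**Figure D3:**
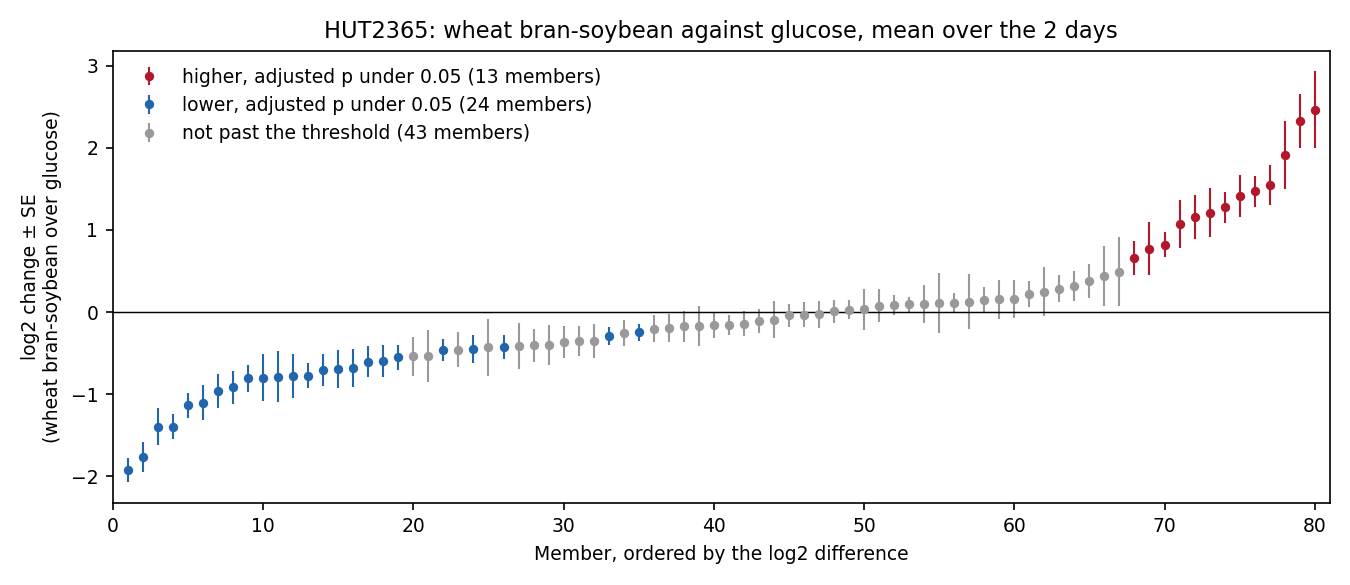
Log2 change ± SE of each member in HUT2365, wheat bran-soybean over glucose, averaged over the 2 days (limma, 24 libraries), with members in order of their change. In red are the 13 members that rose, in blue the 24 that fell and in grey the 43 that did not pass, and the changes run from -1.92 to 2.46.

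The members were next compared between the other strains, over the 4 combinations of medium and day. BCC56535 differed from BCC199 in 47 of the 80 (58.8%; limma, adjusted p under 0.05), where 73.8% of all IDs tested and 70.9% of those that met the limits did. In BCC56535, 23 members were higher and 24 lower than in BCC199, against 37.3% and 36.5% of all IDs. The median absolute log2 difference was 0.41 for the members, 0.49 for the IDs that met the limits and 0.7 for all IDs. A wide gap needs both strains to be high, so nothing is read from the smaller difference. In 17 members the 8 libraries of BCC56535 did not overlap with those of BCC199 (16.8% of all IDs tested).

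acu02244_1 and acu06391_1 had the largest differences with BCC56535 higher. acu02244_1 ran from 362 to 2518 normalized reads in BCC56535 (median 819), against 8.41 to 254 in BCC199 (median 134; log2 difference 3.16, SE 0.23, adjusted p = 2.5e-09). acu06391_1 ran from 897 to 1288 (median 980) in BCC56535, against 137 to 232 (median 187) in BCC199 (log2 difference 2.44, SE 0.14, adjusted p = 7.1e-11). The 3 strains thus formed 3 separate levels for acu06391_1, since HUT2365 held 23.8 to 69.5 (median 55.6).

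acu01118_1 and acu04228_1 had the largest differences with BCC56535 lower. acu01118_1 ran from 255 to 439 (median 351) in BCC56535, against 1134 to 2213 (median 1562) in BCC199 (log2 difference -2.13, SE 0.23, adjusted p = 2.7e-07), and HUT2365 held 5.29 to 38.9. acu04228_1 averaged 294 ± 93.6 in BCC56535 and 991 ± 190 in BCC199 (SD, n = 8 each; log2 difference -1.78, SE 0.11, adjusted p = 2.3e-10), and HUT2365 held 54.7 to 112. These 4 members kept their call without any 1 of the 16 libraries.

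**Figure D4:**
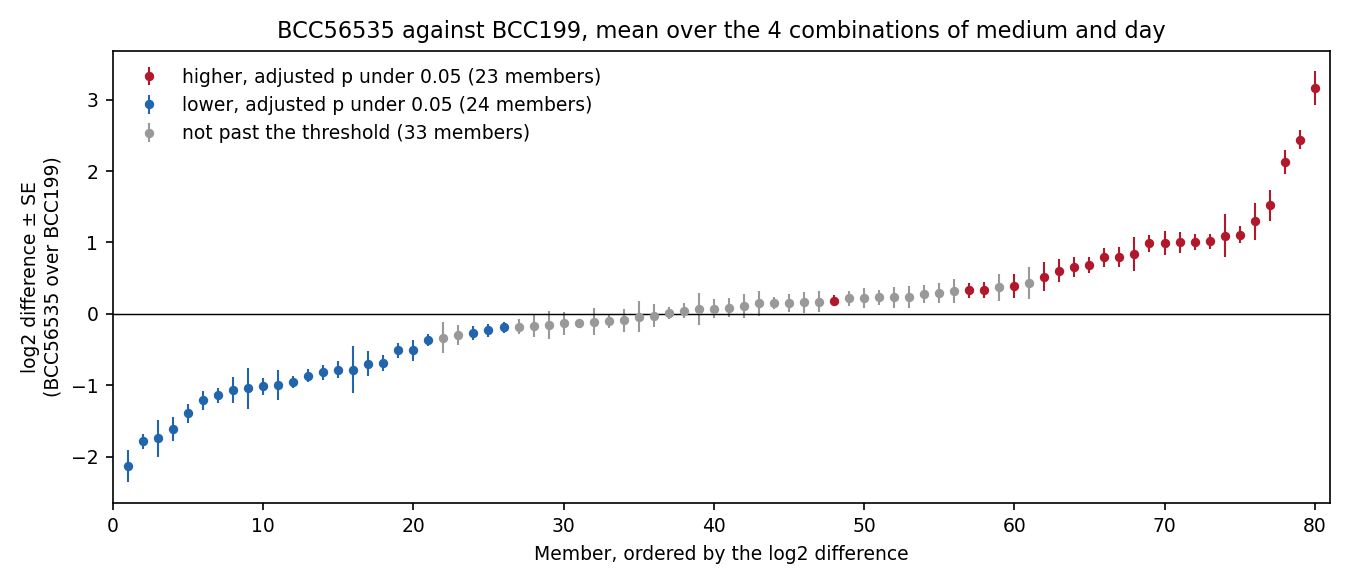
Log2 difference ± SE of each member, BCC56535 over BCC199, averaged over the 4 combinations of medium and day (limma, 24 libraries), with members in order of their difference. The 23 members higher in BCC56535 are red, the 24 lower ones blue and the 33 that did not pass grey, from -2.13 to 3.16.

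The change from day 3 to day 6 was tested in each strain and medium. In wheat bran-soybean, 9 of the 80 members changed in HUT2365 (11.2%, against 8.77% of all IDs tested and 6.29% of those that met the limits). In BCC56535 there were 26 (32.5%, against 37.3% and 34.1%), and in BCC199 there were 7 (8.75%, against 13.5% and 7.13%). In glucose, 16 changed in BCC56535 (20%, against 27.6% and 23.9%). In HUT2365 and in BCC199 in glucose, limma called 0 members (0.0353% and 2.17% of all IDs). At an unadjusted p under 0.05 there were 2 and 7 members (1.1% and 15.2% of all IDs), and with voom weights 0 and 1 were called (0.0235% and 2.53% of all IDs). In BCC199 in glucose, 2 members were called without the day 3 replicate B (3.28% of all IDs). Among the limma calls, the share lay above both backgrounds only in HUT2365 in wheat bran-soybean, with 9 members, and elsewhere near or below 1 of them. With voom weights 2 were called in HUT2365 in wheat bran-soybean (2.5%, against 9.12% of all IDs). The 2 members at an unadjusted p under 0.05 in HUT2365 in glucose (2.5%) also lay above the share of all IDs. These small counts were not tested against the backgrounds. In at least 1 of the 6 day comparisons 44 members were called (55%, against 60.1% of all IDs tested and 53.1% of those that met the limits). In none of the 8 comparisons made were 11 members called (13.8%, against 5.12% and 6.41%). Nothing is read from this share, and its cause was not tested. In a fit of only the 4 libraries compared, the counts in wheat bran-soybean were 0 in HUT2365 (0% of all IDs), 17 in BCC56535 (21.6%) and 29 in BCC199 (38.7%), and in glucose 1 in BCC56535 (1.53%).

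In HUT2365 in wheat bran-soybean, 5 members rose and 4 fell by day 6, against 4.07% and 4.7% of all IDs. acu00216_1 had 347 and 339 normalized reads on day 6, against 86.4 and 97.1 on day 3 (log2 change 1.88, SE 0.35, limma adjusted p = 0.0039). acu00368_2 had 357 and 440 on day 6, against 225 and 203 on day 3 (log2 change 0.88, SE 0.21, adjusted p = 0.018). acu01168_1 had 99 and 106 on day 6, against 170 and 626 on day 3 (log2 change -1.66, SE 0.46, adjusted p = 0.035), and without the day 3 replicate B the change was -0.72 (adjusted p = 0.3). It also lost the call without either day 6 library (adjusted p = 0.13 for each). acu08076_1 had 708 and 673 on day 6, against 1119 and 1080 on day 3 (log2 change -0.67, SE 0.15, adjusted p = 0.013). None of the 4 passed in a fit of only these 4 libraries (adjusted p = 0.096 to 0.32), and of the 4 only acu08076_1 passed with voom weights. acu00368_2 lost the call without replicate B of day 3 or of day 6 (adjusted p = 0.077 and 0.14), and acu08076_1 without replicate A of day 3 or B of day 6 (adjusted p = 0.051 and 0.075). Without replicate A of day 6 there were 5 members called (3.94% of all IDs), without replicate B of day 6 there were 3 (3.3%), and without the day 3 replicate B there were 8 (7.02%).

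In BCC56535 in wheat bran-soybean, 11 members rose and 15 fell, against 17.7% and 19.5% of all IDs. acu00216_1 had 5111 and 4655 normalized reads on day 6, against 1102 and 553 on day 3 (log2 change 2.64, SE 0.35, limma adjusted p = 2.6e-05). acu02244_1 had 2518 and 1215 on day 6, against 407 and 362 on day 3 (log2 change 2.18, SE 0.47, adjusted p = 0.0016). The day 6 replicates of acu02244_1 were 2-fold apart, yet both lay above day 3. acu00125_2 had 24.4 and 64.6 on day 6, against 230 and 363 on day 3 (log2 change -2.79, SE 0.58, adjusted p = 0.0014). acu03900_1 had 63.6 and 102 on day 6, against 376 and 385 on day 3 (log2 change -2.21, SE 0.27, adjusted p = 1.4e-05). Without the day 3 replicate B or the day 6 replicate A, 17 or 16 members were called (23.9% and 26.1% of all IDs).

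In BCC56535 in glucose, 12 members rose and 4 fell, against 13.6% and 14.0% of all IDs. acu04235_1 had 1002 and 1765 normalized reads on day 6, against 254 and 261 on day 3 (log2 change 2.36, SE 0.43, limma adjusted p = 0.00087). acu00742_1 had 1196 and 1840 on day 6, against 378 and 393 on day 3 (log2 change 1.94, SE 0.39, adjusted p = 0.0017). acu00029_1 had 89.6 and 99.8 on day 6, against 291 and 559 on day 3 (log2 change -2.07, SE 0.45, adjusted p = 0.0028). acu00095_1 had 26.5 and 121 on day 6, against 233 and 220 on day 3 (log2 change -1.95, SE 0.52, adjusted p = 0.011), and without the day 6 replicate A its change was -0.89 (adjusted p = 0.19). Without the day 3 replicate A its adjusted p was 0.051. The replicates of day 6 lay further apart than those of day 3 for 3 of these 4 members. With only these 4 libraries none of the 4 passed (adjusted p = 0.066 to 0.23).

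In BCC199 in wheat bran-soybean, 5 members rose and 2 fell, against 8.02% and 5.48% of all IDs. acu02244_1 had 229 and 254 normalized reads on day 6, against 22.7 and 8.41 on day 3 (log2 change 3.92, SE 0.47, limma adjusted p = 2.2e-05). The day 3 value of 8.41 is the lowest of any member in the 16 libraries of BCC56535 and BCC199, and it set the gap of acu02244_1, 1.75 log2 units. acu06660_1 had 248 and 215 on day 6, against 44.4 and 60.8 on day 3 (log2 change 2.11, SE 0.42, adjusted p = 0.0023). acu01671_1 had 325 and 309 on day 6, against 726 and 657 on day 3 (log2 change -1.12, SE 0.29, adjusted p = 0.017). acu05383_1 averaged 3876 ± 29.4 on day 6 and 5218 ± 38.2 on day 3 (SD, n = 2 each; log2 change -0.43, SE 0.13, adjusted p = 0.037). acu01671_1 and acu05383_1 each lost the call when any 1 of the 4 libraries was left out (adjusted p = 0.075 to 0.19), and 4 members were called without replicate A of day 6 and 4 without replicate B (7.53% and 6.71% of all IDs).

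**Figure D5:**
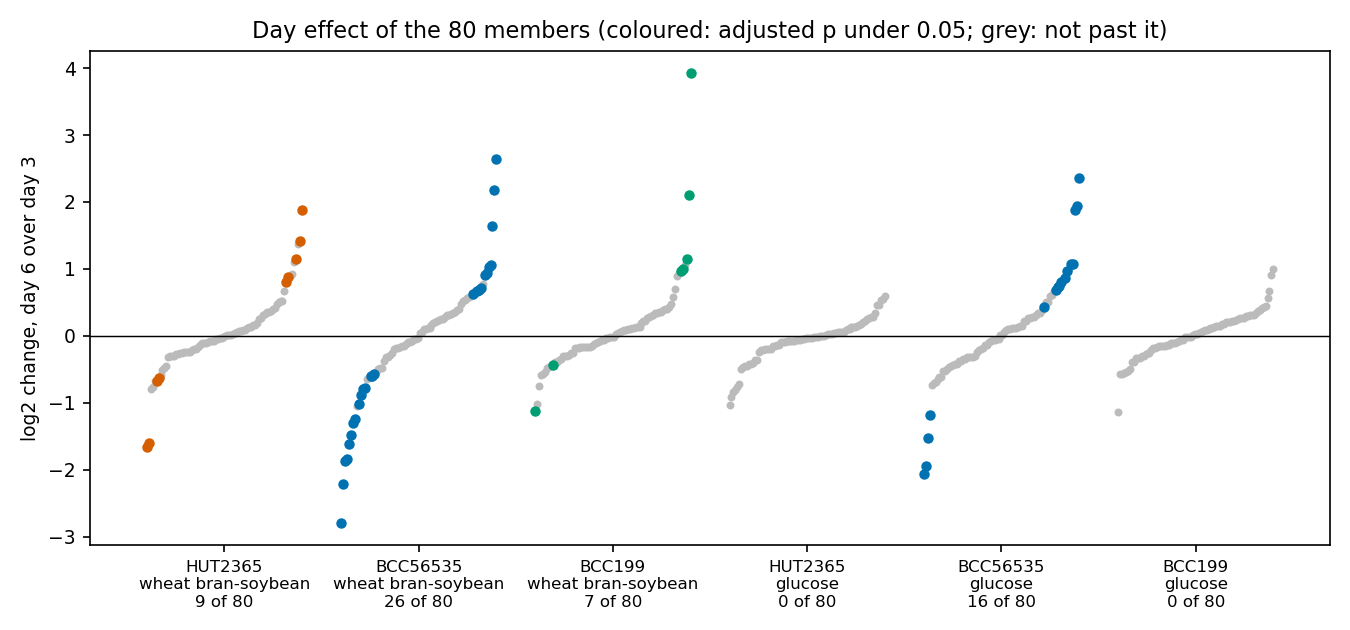
Log2 change from day 3 to day 6 (day 6 over day 3) of the 80 members in each strain and medium, in order of size within each column, with members past an adjusted p of 0.05 in colour and the others in grey (limma, 24 libraries). The count of called members stands under each column and is highest, 26, in BCC56535 in wheat bran-soybean.

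In wheat bran-soybean, 30 members were called in a single strain between the days, 6 in 2 strains and 0 in all 3 (37.5%, 7.5% and 0%), against 35.4%, 9.61% and 1.65% of all IDs. The 6 moved the same way in both strains, as did 78% of the 818 IDs called in 2 strains: 4 in HUT2365 and BCC56535, 1 in HUT2365 and BCC199, and 1 in BCC56535 and BCC199. Among those named above, acu00216_1 rose in HUT2365 and BCC56535, acu00368_2 in HUT2365 and BCC199 (3451 and 3800 normalized reads on day 6, against 1850 and 1842 on day 3), and acu02244_1 in BCC56535 and BCC199. A test of whether the day effect differs among the 3 strains, chosen after the data were seen, called 19 members in wheat bran-soybean (23.8%, against 27.4% of all IDs) and 8 in glucose (10%, against 15.1%; limma moderated F test).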

How the data were processed

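The deposited values are normalized read counts, a signal that is never below 1. RNA was depleted of ribosomal RNA, enriched for messenger RNA and sequenced on an Illumina instrument, per the labels' protocols. HISAT2 2.1.0, Picard and StringTie are named in the submitters' processing notes. The sources used here give no build, annotation, counting tool, strand setting or normalization method. After 1 was subtracted, 100% of the deposited values in each library fell within 0.02 of a whole number of steps of a single size, which was taken as 1 read.

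Members and tests were chosen with earlier results of these data known. A linear model on log2(deposited value + 1), with 12 group means over 24 libraries and a variance trend, was fitted with limma 3.58.1 in R 4.3.3 and left 12 residual degrees of freedom. The 8509 IDs with at least 10 in at least 2 libraries were tested and 106 left out. Tests were two-sided with Benjamini-Hochberg adjustment over all tested IDs and a threshold of 0.05. Log2 changes understate those of low IDs. The fit was also run on simulated data in which the spread of an ID was the same in every group, and nothing here rests on it. Named members were the 2 widest gaps, the IDs at the limit, prefix mates, and per comparison at most 2 that rose and 2 that fell most, with libraries that did not overlap and 100 or more normalized reads on average in 1 of the groups. Percentages of reads were taken over normalized reads. Tables and plots were made in Python 3.11.15 (pandas 2.3.3, numpy 2.4.6, scipy 1.17.1, matplotlib 3.10.9). Alternatives were other pseudocounts (0.5 and 10), no filter, trimmed-mean rescaling, quantile normalization, fits of only the libraries compared, the replicate letter as a block, voom weights on the recovered reads and each library left out.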

Additional observations from a re-analysis of the deposited data

Results flagged for a closer look

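Each group has 2 libraries, so no single library was tested for standing apart. A moderated F test (limma) was chosen after the data were seen. It called a day effect that differed among the strains for 11 of the named members. They were named for a large, called day change in at least 1 strain. That choice favours a difference among the strains, so the p-values below are no independent test of it. Over all members, the F test called 23.8% in wheat bran-soybean, against 27.4% of all IDs and 20.2% of those that met the limits. In glucose it called 10%, against 15.1% and 11%. In wheat bran-soybean, acu02244_1 had log2 changes from day 3 to day 6 of -0.08 in HUT2365, where it had almost no reads, 2.18 in BCC56535 and 3.92 in BCC199 (adjusted p = 0.0012). acu03900_1 had -0.3 in HUT2365, -2.21 in BCC56535 and -0.54 in BCC199 (adjusted p = 0.003). acu08076_1 had -0.67, -0.89 and 0.08 in the same order of strains (adjusted p = 0.0077), acu01671_1 had 0.4, 0.47 and -1.12 (adjusted p = 0.013), and acu01168_1 had -1.66, -0.25 and 0.69 (adjusted p = 0.034). Without the day 3 replicate B of HUT2365, the change of acu01168_1 in that strain was -0.72, and the F test was not repeated without it. acu00216_1 had 1.88, 2.64 and 0.89 (adjusted p = 0.038), acu00125_2 had -0.45, -2.79 and -0.13, and acu00368_2 had 0.88, 0.04 and 0.97 (adjusted p = 0.047). In glucose, acu00742_1 had -0.92, 1.94 and 0.12 (adjusted p = 0.0066), acu00029_1 had 0.53, -2.07 and -0.49 (adjusted p = 0.025), and acu04235_1 had 0.34, 2.36 and 0.04 (adjusted p = 0.027). acu02244_1 and acu00125_2 are counted among the 11, but they reached 10 normalized reads in only 0 and 1 HUT2365 libraries. Both passed the filter through the other strains, so no p-value of the F test is given for them. HUT2365 values of both lie near 0 reads, from which a fall like that of acu00125_2 in BCC56535 could not be seen.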

How the results depend on the processing

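Of the 80 members, 78 remained under trimmed-mean rescaling, 74 under quantile normalization and 73 to 79 without any 1 library. With a medium ratio within 0.5 log2 units 37 remained, and with a mean of at least 1000 37 remained, since both limits remove IDs by construction. Counts of called members were 47 for BCC56535 against BCC199 (41 to 48 without 1 library) and 37 for the medium in HUT2365 (29 to 39). The letters A and B did not pair the libraries: deviations correlated above 0.1 in 12 of 66 pairs of groups and below -0.1 in 10. The median correlation was 0.015 (-0.485 to 0.229). With the letter as a replicate block, 47 and 36 members were called, and the day counts did not move. For the strains and the medium, voom weights gave 50 and 28 members (72.7% and 59.9% of all IDs). Fits of only the libraries compared gave 48 and 30 (72.8% and 59.7% of all IDs). The day effect of HUT2365 in wheat bran-soybean had 9 members called, 2 with voom weights, 0 with only the libraries compared, and 3 to 8 without 1 library. That of BCC56535 had 26 in wheat bran-soybean (17 with only the libraries compared, 16 to 21 without 1) and 16 in glucose (1, and 12 to 18). That of BCC199 had 7 in wheat bran-soybean (29, and 4 to 5). In glucose BCC199 had 0, but 1 each with a pseudocount of 10, quantile normalization or voom weights (0 to 2 without 1 library), and HUT2365 had 0 throughout. Over all IDs, fits of only the libraries compared called 0 against 746 and 0 against 3 (HUT2365), 1840 against 3170 and 130 against 2345 (BCC56535), and 3295 against 1148 and 0 against 185 (BCC199), each in wheat bran-soybean and then glucose. Without 1 library, all-ID counts were 281 to 599 for HUT2365 and 561 to 641 for BCC199 in wheat bran-soybean, and 16 to 279 for BCC199 in glucose. Of 352 alternatives to 24 named values, 323 kept the direction and the call, 29 kept the direction and lost the call, for 10 of the values, and 0 turned direction. acu05383_1 in BCC199 lost its call under quantile normalization (adjusted p = 0.059). In these fits the cause was not tested.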

Other observations

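In BCC56535, acu05569_1, the member with the 12th widest gap, and acu00228_1 were high and low in the same libraries, although the IDs have different prefixes. In wheat bran-soybean, acu05569_1 had 12300 and 20520 normalized reads on day 6 and 13280 and 20180 on day 3, and acu00228_1 had 12670 and 18590 on day 6 and 15720 and 18320 on day 3. In glucose, acu05569_1 had 18280 and 8915 on day 6 and 16080 and 10970 on day 3, and acu00228_1 had 18100 and 8845 on day 6 and 18290 and 13570 on day 3. Replicates of a group differed in the same direction for both IDs in all 4 groups of BCC56535. BCC199 did not show this throughout. In glucose on day 6 its replicates went opposite ways, with 6775 and 7105 for acu05569_1 and 8928 and 8516 for acu00228_1. The library of replicate A there was the lowest of BCC199 for acu05569_1 and the highest for acu00228_1. In the other groups of BCC199 the replicates went the same way. In HUT2365 acu05569_1 kept 693 to 1685 normalized reads, while acu00228_1 had 1.49 to 12.4. The pair was picked after the values were seen.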
